A study of Mus musculus with 3 samples.

Results

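Twist1 occupancy was examined at 10 genes for transcription factors of cardiac valve development, Gata4, Gata5, Gata6, Nfatc1, Sox9, Msx1, Msx2, Tbx2, Tbx3 and Mef2c. A peak was counted for a gene where the deposited peak list named the gene on the lower or the higher coordinate side of the peak at a listed distance of 0 to 50 Kb. This gave 17 of 67468 peaks over the 3 lists, with 4 of the 10965 peaks of endocardial cushions (ECCs), 11 of the 48965 of limb buds and 2 of the 7538 of PNST cells. The rule used the names of the genes and not the values of their peaks, but the 10 genes were chosen with earlier results of these data known.

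Chromatin bound by Twist1 was precipitated with an antibody to Twist1 and sequenced (ChIP-seq) in 3 samples, each a single library without replicates. For ECCs, atrioventricular canal cushions were dissected at E12.5 from wild-type mice of the FVB/N strain, and for limb buds, forelimb buds were taken at E10.5 from the same strain. PNST cells are a line grown in culture from a mouse tumor of the peripheral nerve sheath, with the same strain in the labels. The embryonic tissues were pooled from several litters and the cultured cells from 2 plates, so that neither the spread between embryos nor that between cultures was measured, and tissue, embryonic day and library cannot be told apart. The same antibody was used in all 3 samples, and no sample without Twist1 or precipitated with another antibody is used here.

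Twist1 is a basic helix-loop-helix factor that binds DNA as a dimer at the E-box CANNTG, and it marks the mesenchyme of the early endocardial cushions, which later becomes the valves. The GATA factors are zinc finger proteins of heart progenitors, endocardium and myocardium, and Nfatc1 is a calcineurin-dependent factor of the valve endocardium. Sox9 acts in the proliferation and matrix synthesis of cushion mesenchyme, Msx1 and Msx2 in the transition of endocardium to mesenchyme, Tbx2 and Tbx3 as repressors of chamber genes in the atrioventricular canal, and Mef2c in the anterior heart field and in myocardium.

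The 8 regions below are those on which the following results turn, read from mm9 on the plus strand with each E-box in capitals. The 300 bp limb bud peak 3′ of Tbx3 and the 44 bp common to the 3 peaks there are shown first. They are the one place near any of the 10 genes with a peak in all 3 tissues.
Tbx3, limb bud peak, chr5:120176018-120176317: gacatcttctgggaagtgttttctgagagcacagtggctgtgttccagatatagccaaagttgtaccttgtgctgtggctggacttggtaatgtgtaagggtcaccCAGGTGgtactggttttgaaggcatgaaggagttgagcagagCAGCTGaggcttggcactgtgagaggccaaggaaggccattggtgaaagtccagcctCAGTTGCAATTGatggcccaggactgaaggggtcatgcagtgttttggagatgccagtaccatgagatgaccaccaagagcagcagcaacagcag
Tbx3, common to the 3 peaks, chr5:120176030-120176073: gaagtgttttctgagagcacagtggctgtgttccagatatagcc
The next 4 are shown for their composition or their place among the peaks, as the only ECC peak near Sox9, the only PNST peak near Msx1, the limb bud peak of highest fold enrichment and the limb bud peak of most tags.
Sox9, ECC peak, chr11:112657271-112657339: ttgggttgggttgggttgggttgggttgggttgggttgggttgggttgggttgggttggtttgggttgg
Msx1, PNST peak, chr5:38174942-38175012: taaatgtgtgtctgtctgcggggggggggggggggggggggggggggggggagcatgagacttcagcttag
Gata4, limb bud peak, chr14:63899072-63899249: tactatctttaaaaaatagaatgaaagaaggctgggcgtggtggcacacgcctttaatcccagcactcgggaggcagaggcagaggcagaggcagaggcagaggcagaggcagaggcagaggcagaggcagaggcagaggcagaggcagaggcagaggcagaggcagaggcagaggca
Gata5, limb bud peak, chr2:180051313-180051571: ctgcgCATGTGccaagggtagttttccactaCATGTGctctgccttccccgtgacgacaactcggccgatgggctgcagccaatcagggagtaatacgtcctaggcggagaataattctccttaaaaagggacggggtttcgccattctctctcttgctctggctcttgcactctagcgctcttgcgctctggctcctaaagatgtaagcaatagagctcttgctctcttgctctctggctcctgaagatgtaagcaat
The last 2 are the Tbx3 regions with the largest share of sequence that is found once in the genome, one within 50 Kb of the gene and one far from it that was chosen after its values were seen.
Tbx3, limb bud peak, chr5:120143696-120143846: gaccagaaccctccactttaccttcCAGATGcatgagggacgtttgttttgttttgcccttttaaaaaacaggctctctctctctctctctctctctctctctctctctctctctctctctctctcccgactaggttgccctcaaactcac
Tbx3, ECC peak far 5′ of the gene, chr5:119547466-119547636: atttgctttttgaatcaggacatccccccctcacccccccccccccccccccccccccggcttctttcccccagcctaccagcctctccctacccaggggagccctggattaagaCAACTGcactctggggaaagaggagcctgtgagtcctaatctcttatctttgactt

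The 3 libraries differed in depth and in the length of their lists. The deposited limb bud list and its tag total are far larger than those the study describes for limb buds, so it is not known to be the list the study used, and the limb bud counts and all shares of overlap with limb buds hold for the deposited list. The ECC library held 3149934 tags (sequenced ends) once duplicates were removed, the limb bud library 14893391 and the PNST library 11823220. The fewest tags of any called peak were 5, 8 and 7, which are tag densities of 1.59, 0.537 and 0.592 per 1000000 filtered tags. A density below 1.59 was thus under the lowest ECC call, and 4.99% of the limb bud list and 7.63% of the PNST list reached that value. Intervals on tags below are exact 95% Poisson intervals, cover counting error only, and no test between tissues was possible with 1 library each.

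Peaks within 50 Kb were found at 8 of the 10 genes, and each tissue had a different set. ECCs had a peak at 4 genes, Gata6, Nfatc1, Sox9 and Tbx3. Limb buds had one at 6 genes, Gata4, Gata5, Gata6, Nfatc1, Tbx3 and Mef2c, and PNST cells at 2, Msx1 and Tbx3. By gene, Tbx3 had a peak in all 3 tissues, Gata6 and Nfatc1 in ECCs and limb buds, Sox9 in ECCs alone, Gata4, Gata5 and Mef2c in limb buds alone and Msx1 in PNST cells alone, while Msx2 and Tbx2 had none.

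These counts are set beside those of all genes. Of the 14619 genes named in any of the lists, which include 9 of the 10 and not Tbx2, 36.3% had a peak within 50 Kb in the ECC list, 87.5% in the limb bud list and 23.6% in the PNST list. Of 22238 protein-coding gene names in the mm9 annotation the shares were 22.5%, 53.9% and 14.6%, and 6.56% had a peak in all 3, as had 1538 of the 14619 listed genes. The 10 genes gave 40% for ECCs (95% Wilson interval 16.8 to 68.7), 60% for limb buds (31.3 to 83.2) and 20% for PNST cells (5.67 to 51.0), and 1 of 10 in all 3. With 10 genes these intervals contain the share of protein-coding names in each tissue. They also contain the share of listed genes for ECCs and PNST cells. The limb bud interval lies below the 87.5% of listed genes, a set that leaves out genes named in no list, such as Tbx2.

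**Figure D1:**
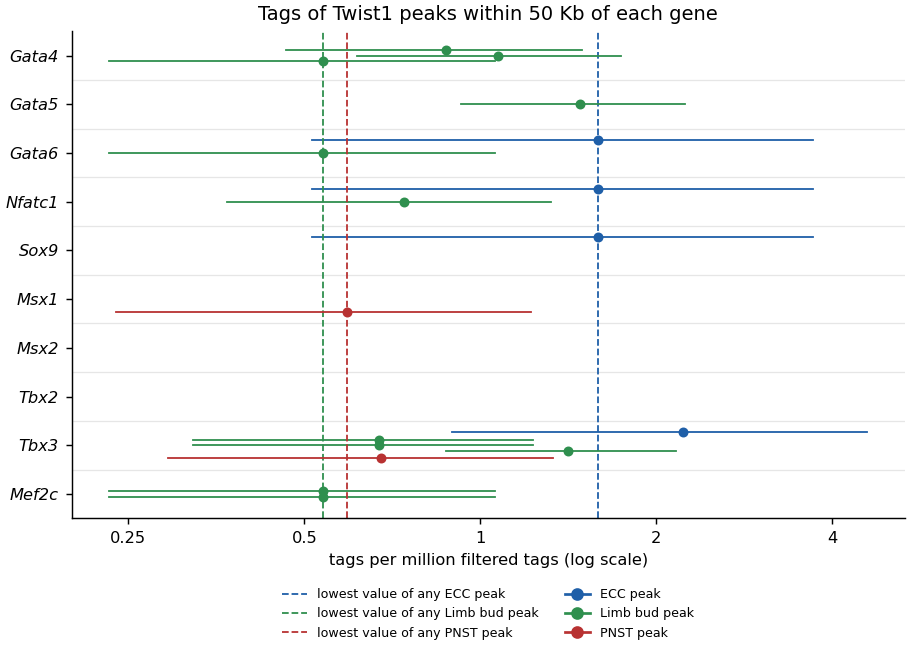
Tags per 1000000 filtered tags (log scale) of the 17 peaks within 50 Kb of the 10 genes, with exact 95% Poisson intervals as bars and, as dashed lines, the lowest value of any peak in each list. The 4 ECC peaks lie at 1.59 to 2.22 and all 13 peaks of limb buds and PNST cells below 1.59, the lowest value that could be called in ECCs.

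Tag numbers were low throughout. The ECC peaks held 5, 5, 5 and 7 tags, so that 3 of 4 were at the lowest count of their list, where 40.3% of all ECC peaks were. The limb bud peaks held 8 to 22 tags with a median of 10.0, and 4 of 11 were at the lowest count, as was 30.1% of the whole list. The PNST peaks held 7 and 8 tags, and 36.9% of all PNST peaks were at the lowest count of 7.

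The GATA genes carried 6 of the 17 peaks, 5 of them in limb buds. At Gata4 (chr14:63817759-63890529, minus strand), which encodes a factor required for cushion mesenchyme and septation, limb buds had 3 peaks and the other tissues none. The peak of intron 2 (chr14:63839904-63840071) had 13 tags (6.92 to 22.2), a fold enrichment over the local background of 19.33 and 2 E-boxes, CACTTG and CAGATG. The 2 other peaks lay 8.63 and 8.88 Kb 5′ of the gene. The first (chr14:63899072-63899249) had 16 tags (9.15 to 26.0) and the highest fold enrichment of the 11 limb bud peaks, 24.64, and the second (chr14:63899321-63899456) had 8 tags (3.45 to 15.8) and a fold enrichment of 11.08. The printed sequence of the first holds the hexamer ggcaga in tandem. In the first 69.2% and in the second 100% of bases were repeated at a spacing of 6 bp, and neither peak holds an E-box.

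No Gata4 row stood in the ECC or PNST list. By position the nearest peaks were 726 Kb from a start site of the gene in ECCs (10 tags, fold enrichment 39.68) and 570 Kb in PNST cells (9 tags, 13.17), both listed between Gucy1b2 and Serpine3. Absence from a list does not mean that no tag fell near a gene, because the lists hold only regions that passed a p-value of 1e-05.

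At Gata5 (chr2:180059838-180069404, minus strand), a factor of endocardial differentiation, limb buds had 1 peak, 8.44 Kb past the 3′ end (chr2:180051313-180051571). It had 22 tags (13.8 to 33.3), the most of any peak at the 10 genes, or a density of 1.48 per 1000000 filtered tags, with a fold enrichment of 12.89 and 2 copies of CATGTG. None of its 50-mers was found only once in the genome, and the median 50-mer had 158 copies. The nearest peaks of the other tissues were 396 Kb from a start site in ECCs (5 tags) and 1229 Kb in PNST cells (7 tags).

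Gata6 (chr18:11052508-11085633, plus strand), which acts in smooth muscle, neural crest and outflow valves, had a peak in ECCs and another in limb buds, on opposite sides of the gene. The ECC peak (chr18:11122913-11123030) lay 37.3 Kb past the 3′ end, with 5 tags (1.62 to 11.7), a fold enrichment of 47.00 and 3 E-boxes, of which 2 were CAGCTG. The limb bud peak (chr18:11028143-11028278) lay 24.3 Kb 5′ of the gene, with 8 tags (3.45 to 15.8), a fold enrichment of 15.66 and no E-box. No 50-mer of the ECC peak was found once in the genome, and its median 50-mer had 257 copies. In the limb bud peak 21.8% of 50-mers were found once, and the median 50-mer had 67 copies. The 2 peaks did not overlap, so both tissues had a peak near the gene, outside it and at different places. PNST cells had no peak within 50 Kb, and their nearest row was listed at 66843 bp (7 tags, fold enrichment 15.17).

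**Figure D2:**
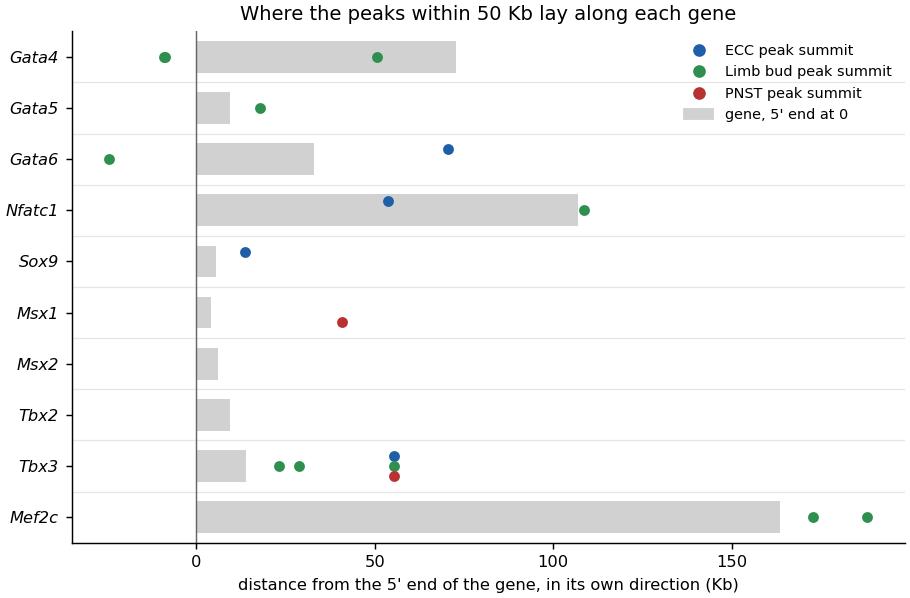
Position of each peak summit in Kb from the 5′ end of its gene, in the direction of transcription, with the gene as a grey bar. Of the 17 peaks, 3 lie 5′ of a gene, 2 inside a gene and 12 past a 3′ end, and the 3 tissues meet at 1 place, 3′ of Tbx3.

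Nfatc1 (chr18:80802944-80909810, minus strand) had 1 peak in ECCs and 1 in limb buds, again at different places. The ECC peak (chr18:80855985-80856132) was in intron 6 of 9, with 5 tags (1.62 to 11.7), a fold enrichment of 16.42, the lowest of the 4 ECC peaks, and 1 E-box, CACCTG. All of its 50-mers were found once in mm9, which held for no other ECC peak at these genes. The limb bud peak (chr18:80801222-80801368) lay 1.66 Kb past the 3′ end, the shortest listed distance of all 17 (1722 bp), with 11 tags (5.49 to 19.7) and a fold enrichment of 14.71. It held 5 copies of CACGTG, but 99.1% of its bases were repeated at a spacing of 31 bp, so that these copies belong to a tandem repeat. The nearest PNST peak was 690 Kb from a start site (7 tags).

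Mef2c (chr13:83643033-83806684, plus strand), a MADS box activator of muscle genes, had peaks in limb buds only. They lay 9.17 and 24.2 Kb past the 3′ end (chr13:83815815-83815944 and chr13:83830797-83830904), which is 173 and 188 Kb from the 5′ end of the gene. Both had 8 tags (3.45 to 15.8), and their fold enrichments were 15.66 and 15.03. The first held 1 E-box, CATGTG, and its median 50-mer had 2 copies in the genome, whereas the second held none and its median 50-mer had 3392. The nearest rows naming Mef2c were listed at 368601 bp in ECCs (6 tags) and 679571 bp in PNST cells (10 tags). Nearer by position were peaks listed between Mir9-2 and Tmem161b, 289 Kb from a start site in ECCs (5 tags) and 383 Kb in PNST cells (7 tags).

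Sox9 (chr11:112643538-112649074, plus strand) had its 1 peak in ECCs, 8.23 Kb past the 3′ end (chr11:112657271-112657339). The peak had 5 tags (1.62 to 11.7), a fold enrichment of 47.00, the same as that of the Gata6 peak and the highest at the 10 genes, and a score of 133.65, where the score is 10 times the −log10 of the p-value. The 69 bp of the region are a repeat of gggtt, with 96.9% of bases repeated at a spacing of 5 bp, no E-box and no 50-mer found once. In limb buds the nearest row (chr11:112590784-112590920) was listed at 52740 bp, just outside the limit, with 8 tags and a fold enrichment of 13.05. The peak just inside the limit was the ECC peak of Tbx3, at 42931 bp. The nearest PNST peak was 771 Kb from a start site (13 tags, fold enrichment 17.48).

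Of the MSX homeobox genes, Msx1 (chr5:38211724-38215822, minus strand) had a peak in PNST cells alone, 36.7 Kb past the 3′ end (chr5:38174942-38175012). It had 7 tags (2.81 to 14.4), a fold enrichment of 21.24 and no E-box. The sequence holds a run of 32 G, and all of its 50-mers were found once. Limb buds had 6 rows naming Msx1 beyond the limit, the nearest at 56986 bp (8 tags), and ECCs had 1, at 198647 bp (16 tags, fold enrichment 37.04). Nearer by position was an ECC peak 138 Kb from the start site (7 tags), where the list names Stk32b.

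Msx2 (chr13:53562250-53568443, minus strand) had no peak within 50 Kb. The nearest rows that name it were listed at 477343 bp in ECCs (10 tags), 269743 bp in limb buds (10 tags) and 196390 bp in PNST cells (7 tags). By position the nearest ECC peak was on the other side, 203 Kb from the start site at chr13:53365185-53365396, where the list names Ror2. It had 78 tags and a fold enrichment of 133.48. The nearest limb bud peak by position, listed between Ror2 and Sptlc1, was 142 Kb from the start site (8 tags).

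Of the T-box repressors, Tbx2 (chr11:85646053-85655450, plus strand) was named in no row of the 3 lists. The nearest peaks by position were 158 Kb from the start site in ECCs (12 tags, fold enrichment 47.62), 125 Kb in limb buds (8 tags, 13.05) and 834 Kb in PNST cells (7 tags, 11.66). The first 2 were listed within Bcas3 and the last within Usp32.

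Tbx3 (chr5:120120678-120134733, plus strand) had 5 peaks over the 3 lists, more than any other of the 10 genes. Of these peaks, 3 overlap at 1 place, 1 from each tissue. Limb buds had 3, all past the 3′ end. The nearest of them, 9.01 Kb past the end, had 10 tags (4.80 to 18.4), a fold enrichment of 17.16 and 1 E-box, CAGATG, beside a ct repeat, and 84.3% of its 50-mers were found once. The next (chr5:120149370-120149535), 14.7 Kb past the end, also had 10 tags, a fold enrichment of 11.84 and no E-box, and 8.55% of its 50-mers were found once.

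The third limb bud peak lay 41.5 Kb past the end, where ECCs and PNST cells also had their only Tbx3 peak. Limb buds had 21 tags there (13.0 to 32.1), ECCs had 7 (2.81 to 14.4; chr5:120176030-120176244) and PNST cells had 8 (3.45 to 15.8; chr5:120175905-120176073), which are densities of 1.41, 2.22 and 0.677 per 1000000 filtered tags. The fold enrichments were 11.13, 23.52 and 13.17. Each was below the median of its own list, which was 14.37 in limb buds, 26.46 in ECCs and 15.17 in PNST cells. The tags were counted over regions of 300, 215 and 169 bp called separately in each tissue, so these densities are given side by side and not as a fold difference at 1 place.

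The PNST peak met the others only at its edge. The ECC peak lay wholly within the limb bud peak (215 bp), whereas the PNST peak shared 44 bp with the ECC peak and 56 bp with the limb bud peak. The summits of ECCs and limb buds were 109 bp apart, those of ECCs and PNST cells 116 bp and those of limb buds and PNST cells 225 bp. The region of 413 bp spanned by the 3 peaks holds 4 E-boxes, those in capitals in the printed limb bud peak. All 4 fell in both the ECC and the limb bud peak, and none in the PNST peak or in the 44 bp common to all.

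No 50-mer of any of the 3 peaks at this place was found once in the genome. The median number of copies was 256 in the ECC peak, 270 in the limb bud peak and 128 in the PNST peak, so that the one region with a peak in all 3 tissues was wholly repeated sequence. How reads with several matches were placed is not given in the sources used here, and the part of repeated sequence in the overlap was not tested.

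**Figure D3:**
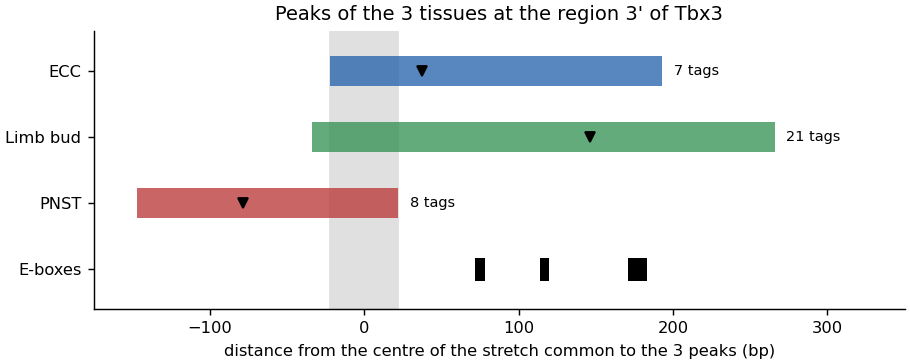
Extent of the ECC, limb bud and PNST peaks 3′ of Tbx3 in bp from the centre of the 44 bp common to the 3 (grey), with summits as triangles, tags as numbers and the 4 E-boxes as black bars, of which the last 2 adjoin. The PNST peak reaches into the common stretch from one side, and all 4 E-boxes lie on the other.

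No other of the 17 peaks overlapped a peak of another tissue by the 5% of its length used by the study. That was 1 of 4 peaks in ECCs, 1 of 11 in limb buds and 1 of 2 in PNST cells, each overlapped by both other tissues. Over the whole lists, overlap with at least 1 other tissue was found for 34.0% (ECC), 8.86% (limb bud) and 18.5% (PNST), and overlap with both for 5.85%, 1.36% and 9.03%.

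Of the 17 peaks, 3 had 50% or more of their 50-mers found once, namely the Nfatc1 peak in ECCs, the first Tbx3 peak in limb buds and the Msx1 peak in PNST cells, while 8 had none. Over all placed peaks, 12.8% (ECC), 6.63% (limb bud) and 11.2% (PNST) had 50% or more, and 49.6%, 58.4% and 46.9% had none. The 8 peaks without any were 3 of 4 in ECCs, 4 of 11 in limb buds and 1 of 2 in PNST cells. In 3 peaks, those at Sox9 in ECCs and at Gata4 and Nfatc1 in limb buds, at least 80% of bases were repeated at 1 spacing of up to 40 bp, against 11.8%, 5.94% and 8.05% of all placed ECC, limb bud and PNST peaks.

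**Figure D4:**
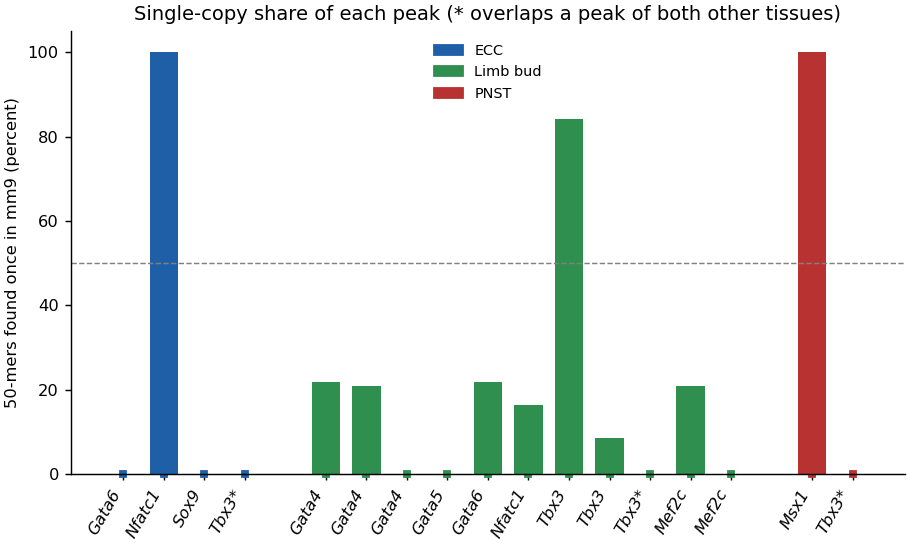
Percent of the 50-mers of each of the 17 peaks that are found once in mm9, by tissue, with the dashed line at 50% and small squares marking peaks at 0. Only 3 bars pass the line, and the 3 Tbx3 peaks shared by the tissues are at 0.

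An E-box (CANNTG, which reads the same pattern on both strands) was found in 9 of the 17 peaks, 52.9% (95% Wilson interval 31.0 to 73.8). The share was 3 of 4 in ECCs (75.0%, 30.1 to 95.4), 6 of 11 in limb buds (54.5%, 28.0 to 78.7) and 0 of 2 in PNST cells (up to 65.8%). Peaks of like length (within 10%) in the same lists held an E-box in 42.8%, 56.9% and 36.2%, all inside these intervals, and all placed peaks in 54.7%, 56.0% and 54.0%. The match of 6 letters is a description of the sequence and not a bound site.

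By the annotation, 15 of the 17 peaks were intergenic, 2 were intronic and none was in an exon. The listed distances were not measured from the start site in most rows. For the 5′ peaks of Gata4 they were 35084 and 35333 bp, which reach a boundary inside the gene. Measured from the nearest annotated start site of a coding transcript, 13 of the 17 peaks were within 50 Kb, namely 3 of the 4 ECC peaks, 8 of the 11 limb bud peaks and both PNST peaks. Gata6 in ECCs, Nfatc1 in limb buds and Mef2c in limb buds had no peak by that measure.

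Rows that name the genes beyond 50 Kb were more frequent than those within it, with 28 ECC, 78 limb bud and 18 PNST rows. They were concentrated at Gata6, Tbx3 and Mef2c. Limb buds had 21, 12 and 31 such rows at these 3 genes, ECCs had 10, 7 and 7, and PNST cells had 7, 0 and 6. Peaks shared between tissues were found among them, 11 of 28 in ECCs (39.3%, 95% Wilson interval 23.6 to 57.6, against 34.0% of all ECC peaks), 14 of 78 in limb buds (17.9%, 11.0 to 27.9, against 8.86%) and 3 of 18 in PNST cells (16.7%, 5.84 to 39.2, against 18.5%). None was shared by all 3 tissues.

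At Tbx3, 6 of the 7 ECC peaks and 6 of the 12 limb bud peaks beyond the limit overlapped a peak of the other tissue. Over the whole lists 34.0% of ECC and 8.86% of limb bud peaks overlapped a peak of another tissue. Tbx3 was singled out after these counts were seen. The 6 ECC peaks lay 302263 to 876297 bp 5′ of the gene by the listed distance, those at 335973 and 336445 bp close together. Tags were 5 to 12 in ECCs and 8 to 71 in the overlapping limb bud peaks. Of these 6, the peak at 573212 bp (chr5:119547466-119547636), with 5 tags in ECCs and 9 in limb buds, was the one whose 50-mers were all found once in both tissues, and its printed sequence holds a run of c and 1 E-box in the ECC peak outside the 58 bp shared with limb buds. In the other 5, at most 18.4% of the 50-mers of the ECC peak were found once.

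The most tags at any row naming one of the 10 genes were at a region 3′ of Gata6, listed at 204095 bp, which was chosen after its values were seen. ECCs had 59 tags there (44.9 to 76.1; chr18:11288573-11288910) with a fold enrichment of 40.61, and limb buds had 95 (76.9 to 116; chr18:11288585-11288834) with a fold enrichment of 29.62. These are densities of 18.7 and 6.38 per 1000000 filtered tags, over regions called separately in each tissue. More tags than in 98.5% of ECC peaks and 99.4% of limb bud peaks were found there, and 85.5% and 79.1% of the 50-mers were found once. Neither peak held an E-box, and no PNST peak overlapped them.

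**Figure D5:**
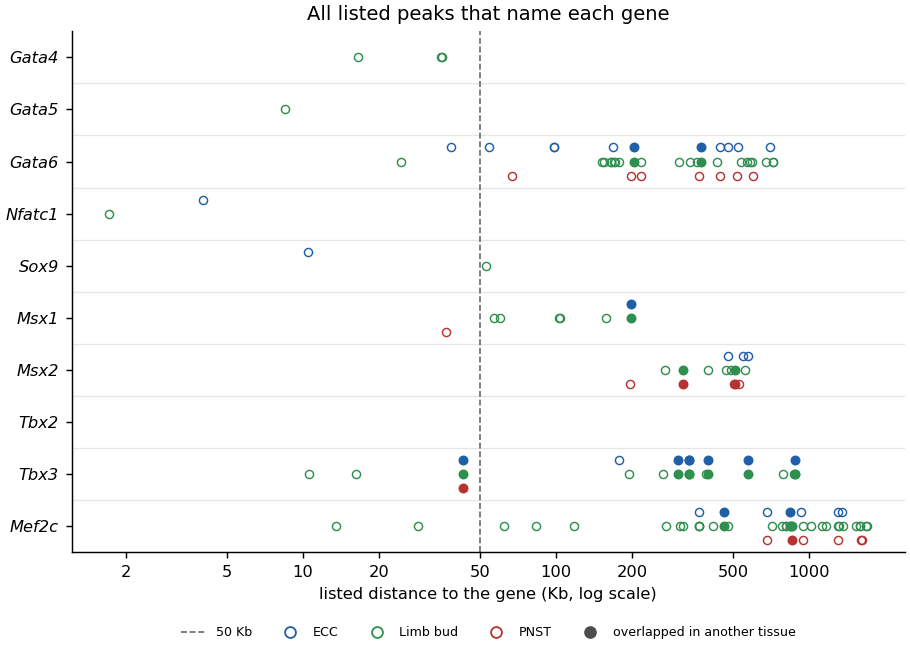
Listed distance in Kb (log scale) of every peak that names each of the 10 genes, with the 50 Kb limit dashed and filled symbols for peaks overlapped by a peak of another tissue. Filled are 3 of the 17 peaks within the limit, all at Tbx3, and 11 of 28 ECC, 14 of 78 limb bud and 3 of 18 PNST peaks beyond it. Over the whole lists 34.0% of ECC, 8.86% of limb bud and 18.5% of PNST peaks were overlapped.

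Of 24 other transcription factors of cushions and valves, ECCs had a peak within 50 Kb at 6 (25.0%), limb buds at 18 (75.0%) and PNST cells at 8 (33.3%), against the shares of named genes of 36.3%, 87.5% and 23.6%. The shares of protein-coding names were 22.5%, 53.9% and 14.6%, with 6.56% in all 3 tissues. Peaks in all 3 tissues were found at 4 of the 24, Nkx2-5, Hey2, Sox6 and Zfpm2, but at none of them did 1 region carry a peak in all 3. The most tags in each tissue were 11 at Nkx2-5 for ECCs (chr17:26944783-26945045, fold enrichment 46.30), 33 at Tbx5 for limb buds (chr5:120344757-120345070, 13.89) and 11 at Foxp1 in the PNST list (chr6:98831612-98831800, 11.22).

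Of 15 relatives of the 10 genes, ECCs had a peak at 2 (13.3%), limb buds at 9 (60.0%) and PNST cells at 2 (13.3%), and no relative had one in all 3 tissues. The shares of protein-coding names were 22.5%, 53.9% and 14.6%, and those of listed genes 36.3%, 87.5% and 23.6%. Some of the 15 were named in no list. Nfatc2 had the most tags of the relatives in ECCs (7; chr2:168272473-168272671) and in limb buds (42; chr2:168444700-168445047), at places that did not overlap, and Nfat5 had the most in PNST cells (8; chr8:109797940-109798091). None of the 24 peaks at these relatives was overlapped by a peak of another tissue. Of the 24, 20 were limb bud peaks, and over the whole limb bud list 8.86% were overlapped. The shares were 34.0% for all ECC peaks and 18.5% for all PNST peaks.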

How the data were processed

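Per the methods, 50 bp single reads were mapped to mm9 (the authors name Eland v2 and Bowtie, the latter without a version). The authors ran MACS 1.4.2 separately on every library (p-value of 1e-05, band width of 300). Tags per peak were deposited as whole-number counts, not normalized for depth, with 1 tag allowed for any position. The deposited score is 10 times the −log10 of the p-value, and the deposited fold enrichment is a ratio to the local background of the summit. The file headers name no control file, whereas the methods name FVB/N genomic DNA. The handling of reads with several matches is not given in the sources used here.

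The 10 genes and the other gene lists were chosen with earlier results of these data known. All 10 genes are named, with every shared peak, the peaks of most tags and highest fold enrichment in each tissue, and the nearest listed peak beyond 50 Kb where none was within it. Of the other lists only genes with a peak in all 3 tissues and those with the most tags are named.

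Peaks were read with pandas 2.3.3, and tags were given for every 1000000 filtered tags. Positions were set against GENCODE vM1 on the mm9 sequence. The listed distance ended within 1 bp of the lower end of an exon, coding segment or codon in 94.8% of 62602 rows with the gene on the lower side and in 74.5% of 63281 on the higher side, and at a start site in 1.94% and 26.7%. Copies of each 50-mer were counted on both strands over 211 sequences of the assembly. Overlap, repeat and motif counting were checked on simulated data. With 1 library for each tissue, no test between tissues was made. The alternatives are given at the end.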

Additional observations from a re-analysis of the deposited data

How the results depend on the processing

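With 1 library for each tissue, no replicate could be left out. No paired analysis was possible because each tissue had 1 sample. Keeping only the nearer gene of a row, measuring from the start site, or leaving out peaks with 80% or more of bases at 1 spacing (added after seeing the data) kept the counts of genes and peaks within 1.5 times. At a p-value of 1e-10 or smaller, genes and peaks were each 1 in ECCs (Sox9), 2 in limb buds (Gata4 and Gata5) and 0 in PNST cells. At a fold enrichment of 20 or more ECCs kept 3, limb buds 1 and PNST cells 1, and the limb bud share with an E-box was 0%. That limit is below the median of the whole ECC list (26.46) and above those of limb buds (14.37) and PNST cells (15.17). A limit of 10 Kb on the listed distance left 1 gene and peak in ECCs (Nfatc1), 2 in limb buds (Nfatc1 and Gata5) and 0 in PNST cells. Their summits were 48818, 103623 and 17864 bp from the nearest start site, so none of the peaks kept lay within 10 Kb of one. The 3 limb bud peaks of Gata4, the only ones with a summit within 10 Kb of a start site, were left out by this limit. At the lowest ECC tag density, limb buds and PNST cells kept 0 and ECCs, by construction, 4. With 50% or more of 50-mers found once (added after seeing the data) each tissue kept 1 gene and 1 peak. The shared Tbx3 region remained with any overlap or within 1 Kb. Under a reciprocal overlap of 50% the PNST peak was no longer shared (0), and at a p-value of 1e-10 or smaller in both tissues 0 ECC and 0 limb bud peaks were. The lowest called tag density was higher in ECCs (1.59) than in limb buds (0.537) or PNST cells (0.592), all per 1000000 filtered tags.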
